A study of Mus musculus with 18 samples.

Results

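The Bcl2 family comprises the proteins that hold back or carry out the opening of the outer mitochondrial membrane in cell death. Here 10 of its genes were followed in the dorsal root ganglia of injured mice: the anti-apoptotic Bcl2, Bcl2l1, Bcl2l2 and Mcl1, the pore-forming effectors Bax and Bak1, and the BH3-only genes Bid, Bbc3, Bcl2l11 and Hrk. They were taken by symbol from the deposited count table, and all 10 were among its 15730 genes. The samples were sciatic dorsal root ganglia, which house the cell bodies of the sensory neurons that send axons into the sciatic nerve, from C57BL/6 mice of 6 to 8 weeks, collected 24 hours after surgery. Each sample pooled the ganglia of 2 mice, and each of the 6 groups had 3 samples. SNA_Saline was a sciatic nerve injury with saline, Sham_Saline the sham operation with saline, SNA_NAC the sciatic injury with 30 mM N-acetyl-cysteine (NAC, a thiol antioxidant), and Sham_H202 (spelled as in the labels) the sham operation with 13 mM hydrogen peroxide. DCA was an axotomy within the spinal cord, in the dorsal columns, where the ascending branches of these neurons run, and LAM was laminectomy, the removal of bone that exposes the cord. No group carried a transgene or a deletion in the labels.

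In this pathway the anti-apoptotic proteins bind Bax, Bak and the BH3-only proteins. When BH3-only proteins accumulate or are activated they occupy the anti-apoptotic proteins or engage Bax and Bak directly, and the pores that follow release cytochrome c, which starts the caspase cascade. In sensory neurons the family is best known from developing ganglia, where loss of nerve growth factor leads to Bax-dependent death preceded by activity of the Jun pathway and transcription of Hrk, Bcl2l11 and Bbc3, whereas adult sensory neurons mostly survive the days after axotomy.

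No member passed the threshold of an adjusted p under 0.05 in edgeR's quasi-likelihood test in any of 7 comparisons. Mcl1 came nearest, in the test of the difference between the sciatic and dorsal column responses (edgeR adjusted p = 0.0504). It had 187 CPM (counts per library total, TMM-scaled) after sciatic injury against 133 CPM in its sham group. In DCA it had 137 CPM, against 175 CPM in LAM. Outside the 10 members the BH3-only gene Pmaip1 rose after sciatic injury. The levels of several members also moved with a property of the libraries, their GC slope. Mcl1, Bcl2 and Bcl2l1 passed in some comparisons once the GC share and length of transcripts entered the fit as offsets. In those comparisons 5.3% to 7.64% of all genes passed with the offsets. When a sample was left out, the sciatic call of Mcl1 with the offsets was lost in 3 of 6 fits. The calls in the difference between the responses held in 11 of 12 fits for Mcl1 and in 6 of 12 for Bcl2l1. Those of Bcl2 held in all 6 fits of each comparison. DESeq2 without such offsets called Mcl1 and Bcl2l1 in some comparisons as well, where it called 5.49% to 11.1% of all genes.

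Total counts ran from 6472476 to 42435331 per sample, a ratio of 6.56. The sensory neuron markers were all present and their summed level lay between 9102 and 15250 CPM in every sample. The GC slope is the slope, over all other genes, of a library's log2 CPM relative to the gene's mean on the GC share of the gene's transcript, per standard deviation of that share. It ran from -0.22 to 0.43, and Sham_Saline replicate 2, at 0.43, stood apart from Sham_Saline replicates 1 and 3, at -0.04 and 0.16. The same group held the widest range of skeletal muscle markers, whose sum lay between 5.43 and 1085 CPM. In whole ganglia, fewer cells of a type and less RNA per cell cannot be told apart. Exons of 5 members overlap another gene in GENCODE M21 (Bcl2 and D630008O14Rik, Bak1 and Ggnbp1, Bid and Bcl2l13 on opposite strands, Bcl2l2 and Gm20521, Bax and Gm45808 on the same strand), by 192 to 628 bases. The use of strand in counting is not given in the sources used here, so the counts of these 5 members are uncertain to that extent.

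Levels can be compared between members only per transcript length, as FPKM (fragments per kilobase of transcript, scaled to a common library total). Mcl1 (ENSMUSG00000038612, chr3:95658788-95663176, plus strand, GRCm38), a short-lived inhibitor of Bak and Bax, had the highest mean over the 18 samples, 45.3 ± 7.07 FPKM (SD, n = 18). Bcl2l2 (ENSMUSG00000089682), which encodes the anti-apoptotic Bcl-w, followed at 36.2 ± 3.13 FPKM (SD, n = 18), and Mcl1 was the higher of the pair in 14 of 18 samples. Next came Bax (ENSMUSG00000003873) at 15.5 ± 7.05 FPKM, Bid (ENSMUSG00000004446), whose cleavage links death receptors to mitochondria, at 12.7 ± 1.12 FPKM, Bcl2l1 (ENSMUSG00000007659), the gene of Bcl-xL, at 10.6 ± 3.18 FPKM, and Bcl2 (ENSMUSG00000057329) at 8.47 ± 1.20 FPKM (SD, n = 18 each).

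These 4 genes were not cleanly ordered: Bax was above Bid in 10 of 18 samples, Bid above Bcl2l1 in 15 and Bcl2l1 above Bcl2 in 12, and the ranges of each neighbouring pair overlapped. Bak1 (ENSMUSG00000057789), the second effector, lay below Bcl2 in all 18 samples, at 3.68 ± 0.68 FPKM (SD, n = 18). The inducible BH3-only genes were far lower. Bcl2l11 (ENSMUSG00000027381), the gene of Bim, had 0.59 ± 0.08 FPKM, Bbc3 (ENSMUSG00000002083), the gene of Puma and a target of p53, 0.46 ± 0.22 FPKM, and Hrk (ENSMUSG00000046607), named for the protein Harakiri, 0.14 ± 0.07 FPKM (SD, n = 18 each). Bak1 was above Bcl2l11 in all 18 samples without overlap of their ranges, and Bcl2l11 above Bbc3 in 15. Bbc3 rested on 4 to 60 counts per sample and Hrk on 2 to 47.

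**Figure D1:**
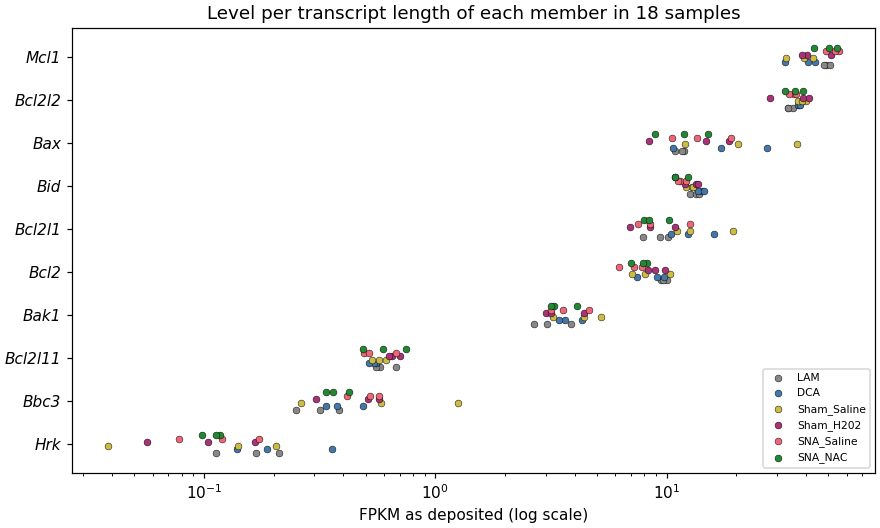
Deposited FPKM of each member (horizontal axis, log scale), with 1 point per sample in the colour of its group, members ordered by their mean. Mcl1 (32.5 to 55.5 FPKM) and Bcl2l2 (28.1 to 41.3 FPKM) lie at the top, and Hrk (0.04 to 0.36 FPKM) at the bottom.

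RefSeq promoter windows were found for all 10 members, 15 windows in all, each of the 250 bases before a start site (GRCm38.p6). They were searched on both strands for the letters of sites that bind the Jun and stress pathways acting upstream of this family, and for the GC box. Neither the AP-1 letters TGANTCA, which 6.75% of 32851 promoter windows of the same length hold, nor the CRE letters TGACGTCA, which 1.55% hold, occurred in any of the 15 windows. The letters TGATGNAA, bound by C/EBP-ATF dimers and held by 3.45% of windows, occurred in the window of Hrk. The FoxO letters GTAAACA, held by 3.17%, occurred in 1 window each of Bcl2l11 and Bbc3. The GC box GGGCGG, held by 32.7% of all windows, occurred in every member window except those of Bcl2l1 and Bak1. The window of Mcl1 is shown because Mcl1 had the smallest p after sciatic injury, and the others because they hold one of the rarer matches. Capitals mark the motif letters on either strand, and each window is printed 5′ to 3′ on the strand of its gene. A match of letters is a description and not a binding site.
Mcl1, chr3:95658471-95658720, plus strand, a single GC box: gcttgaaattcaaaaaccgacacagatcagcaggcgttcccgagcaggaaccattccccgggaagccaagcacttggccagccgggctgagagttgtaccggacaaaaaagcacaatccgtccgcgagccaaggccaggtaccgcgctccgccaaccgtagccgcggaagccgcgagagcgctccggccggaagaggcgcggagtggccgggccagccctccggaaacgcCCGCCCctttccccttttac
Hrk, chr5:118169514-118169763, plus strand, the C/EBP-ATF letters starting 114 bases before the start site and GC boxes: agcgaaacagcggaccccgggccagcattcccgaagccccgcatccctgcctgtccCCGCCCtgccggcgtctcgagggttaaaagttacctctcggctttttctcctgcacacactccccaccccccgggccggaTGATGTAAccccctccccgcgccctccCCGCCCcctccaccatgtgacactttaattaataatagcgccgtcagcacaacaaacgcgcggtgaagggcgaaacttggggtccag
Bcl2l11, chr2:128125788-128126037, plus strand, the FoxO letters starting 227 bases before the start site and GC boxes: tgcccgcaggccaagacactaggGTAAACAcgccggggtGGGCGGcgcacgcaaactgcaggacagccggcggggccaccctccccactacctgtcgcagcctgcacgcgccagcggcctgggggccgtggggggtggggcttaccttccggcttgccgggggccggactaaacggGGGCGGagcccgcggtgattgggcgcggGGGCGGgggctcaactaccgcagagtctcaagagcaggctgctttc
Bbc3, chr7:16310011-16310260, plus strand, the FoxO letters on the opposite strand, 167 bases before the start site, and a GC box: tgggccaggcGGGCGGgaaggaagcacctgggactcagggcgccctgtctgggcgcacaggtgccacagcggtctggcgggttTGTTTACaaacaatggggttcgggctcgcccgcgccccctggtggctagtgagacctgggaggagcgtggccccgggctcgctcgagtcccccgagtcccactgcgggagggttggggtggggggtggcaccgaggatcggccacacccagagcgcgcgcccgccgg

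The first comparison asked how the members responded to sciatic injury. Mcl1 had 136, 115 and 147 CPM in Sham_Saline replicates 1 to 3 and 199, 193 and 169.9 CPM in SNA_Saline replicates 1 to 3. Every injured sample lay above every sham sample. The mean went from 133 ± 16.5 to 187 ± 15.4 CPM (SD, n = 3 each), or a log2 fold change of 0.50 ± 0.15 (SE), with a 95% interval of 0.19 to 0.81, at an edgeR adjusted p of 0.0860. The difference was 0.55, 0.75 and 0.21 on the log2 scale within lanes 1, 2 and 3, each lane holding 1 sample of each group. DESeq2's Wald test gave an adjusted p of 0.0415 for Mcl1, so the call depended on the tool.

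Bcl2l1 differed in the other direction. It had 50.8, 89.6 and 57.0 CPM in Sham_Saline replicates 1 to 3 and 40.0, 35.6 and 57.5 CPM in SNA_Saline, where replicate 3 lay within the sham range. Its log2 fold change was -0.57 ± 0.22 (SE), at an edgeR adjusted p of 0.171. The difference was -0.34, -1.33 and 0.01 within lanes 1, 2 and 3, and the Sham_Saline sample of lane 2 held the highest value of all 18 samples. Bcl2, the founding member of the family, had 74.0, 51.5 and 57.1 CPM in Sham_Saline and 53.6, 58.5 and 44.8 CPM in SNA_Saline, and the groups overlapped. Its log2 fold change was -0.22 with a 95% interval of -0.53 to 0.09 (edgeR adjusted p = 0.360). Bcl2l2 had 167 to 178 CPM in Sham_Saline and 156 to 164 CPM in SNA_Saline. The groups did not overlap but lay close together, at a log2 fold change of -0.10 with a 95% interval of -0.32 to 0.12 (edgeR adjusted p = 0.566).

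Sham_Saline replicate 2 held the highest value of each effector. Bax had 10.4, 32.0 and 17.4 CPM in Sham_Saline replicates 1 to 3 and 12.1, 9.51 and 16.4 CPM in SNA_Saline. Only Sham_Saline replicates 2 and 3 lay above the injured samples, and replicate 1 lay inside their range. The log2 fold change of Bax was -0.65 ± 0.37 (SE), with a 95% interval of -1.44 to 0.14 (edgeR adjusted p = 0.294). Bak1 had 7.77, 12.6 and 10.4 CPM in Sham_Saline and 8.84, 7.89 and 11.1 CPM in SNA_Saline, overlapping, with a log2 fold change of -0.14 (edgeR adjusted p = 0.685). Without Sham_Saline replicate 2 that value was 0.05.

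Of the BH3-only members, Bid was the steadiest, at 42.7 to 46.2 CPM in Sham_Saline and 41.4 to 43.1 CPM in SNA_Saline. Its log2 fold change of -0.09 had a 95% interval of -0.27 to 0.09 (edgeR adjusted p = 0.515). Bcl2l11 had 4.58, 4.30 and 4.82 CPM in Sham_Saline and 5.61, 4.11 and 4.13 CPM in SNA_Saline, so that 1 injured sample was above and the other two below all sham samples. Its log2 fold change was 0.03, with a 95% interval of -0.34 to 0.40 (edgeR adjusted p = 0.933). Bbc3 had 0.52, 2.53 and 1.15 CPM in Sham_Saline and 0.86, 1.08 and 1.14 CPM in SNA_Saline, with a log2 fold change of -0.49 and a 95% interval of -1.36 to 0.39 (edgeR adjusted p = 0.469), and the sign turned, to 0.34, without Sham_Saline replicate 2. Hrk had 1.10, 0.76 and 0.20 CPM in Sham_Saline and 0.66, 0.43 and 0.93 CPM in SNA_Saline, the injured samples lying inside the sham range. Its 95% interval, -1.10 to 1.00, was the widest of the sciatic comparison.

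In all, 0 of 10 members passed in SNA_Saline against Sham_Saline, where 2.73% of all genes passed in edgeR. At an unadjusted p under 0.05 the count was 2 (Bcl2l1 and Mcl1), where 22.5% of all genes were under that value. DESeq2 called 1 member (Mcl1), against 5.49% of all genes. The groups did not overlap for 2 members (Bcl2l2 and Mcl1), against 19.1% of all genes. These shares of members lie near those of all genes. The median log2 fold change of the members was -0.12, beside -0.03 over all genes tested, with 2 members above 0 and 8 below.

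**Figure D2:**
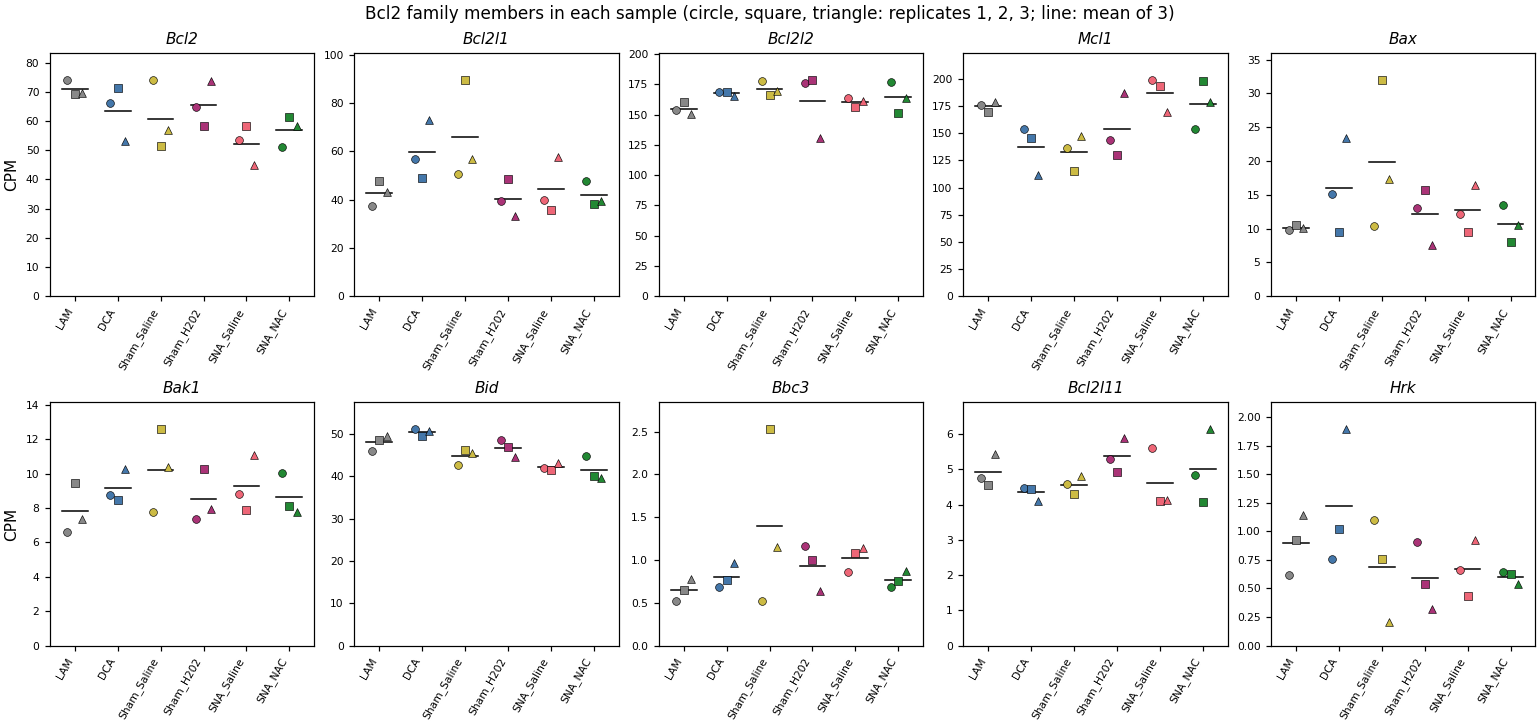
CPM of each member (vertical axis, starting at 0) in every sample, grouped along the horizontal axis, with circles, squares and triangles for replicates 1, 2 and 3 (also the sequencing lanes) and a line at the mean of 3. Sham_Saline replicate 2 is the highest point for Bcl2l1, Bax, Bak1 and Bbc3, and the SNA_Saline points of Mcl1 (169.9 to 199 CPM) lie above those of Sham_Saline (115 to 147 CPM).

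None of the markers of sensory neurons, satellite glia, Schwann cells, macrophages, neutrophils, red blood cells, skeletal muscle, lymphocytes, endothelium or fibroblasts that were analysed passed in this comparison. The summed neuron markers (10 of 10 measured) were 11120 to 15250 CPM in Sham_Saline and 10360 to 11020 CPM in SNA_Saline, and the summed macrophage markers (6 of 6) 51.3 to 56.5 CPM and 59.7 to 66.8 CPM, in neither case overlapping. For T and B cells, 3 of 5 markers were measured, with sums of 7.91 to 9.81 and 3.24 to 7.70 CPM, also without overlap. The summed endothelial markers (4 of 4) did not overlap either, at 64.0 to 67.1 CPM in Sham_Saline and 54.3 to 60.5 CPM in SNA_Saline. The sums of the other 6 lists overlapped. The part of these cell types in the members' values was not tested.

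Several members followed the GC slope of the library across all 18 samples. The slope is a trend of all other genes, and the share of all genes that follow it was not computed. Whether following it is particular to the members was therefore not tested. A gene whose GC share is far from the mean follows such a trend almost by definition, so a small p-value says little about it. The permutations behind the p-values below shuffled all 18 samples without regard to their groups, so differences between groups enter them too. Their own transcripts spanned 46.3% GC in Bcl2 to 65.2% in Bbc3, and Bax, at 63.5%, had a higher GC share than 99.4% of genes. The log2 CPM of Bax correlated with the slope at a Pearson's r of 0.98 and a Spearman's rho of 0.94 (permutation p = 1e-05 for each, the smallest that 100000 resamples can give, and adjusted p = 3.33e-05 and 5.00e-05 over 10 members). Without the 2 samples farthest from the median slope, Sham_Saline replicate 2 and DCA replicate 3, r was 0.95, and within lanes 1, 2 and 3 it was 0.87, 0.99 and 1.00 (6 samples each). The SD of the log2 CPM of Bax over 18 samples was 0.53, and 0.15 after correction for GC share and transcript length. The fall was smaller in other members, such as Mcl1 (0.25 to 0.21) and Bcl2 (0.22 to 0.20). Before logs were taken, the corrected values had a smaller count added than the prior count of 2. SDs before and after correction are therefore not on the same scale, which matters most for genes with few counts. In Bcl2l11 (0.18 and 0.19) and Hrk (0.61 and 0.66) the SD after correction was the higher. The part of the correction in this was not tested.

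Among the anti-apoptotic members, Bcl2l1 followed the slope at r = 0.93 and rho = 0.90 (permutation p = 1e-05 each, adjusted p = 3.33e-05 and 5.00e-05), with r = 0.84 without the 2 farthest samples and 0.70, 0.94 and 0.99 within lanes. Mcl1 ran against it, at r = -0.82 and rho = -0.78 (permutation p = 7e-05 and 0.00029, adjusted p = 0.000175 and 0.000967), with -0.67 without the 2 samples and -0.51, -0.91 and -0.85 within lanes. Bcl2 had r = -0.61 and rho = -0.65 (permutation p = 0.00636 and 0.00517, adjusted p = 0.0106 and 0.00862), with -0.54 without the 2 samples and -0.44, -0.66 and -0.76 within lanes. Bcl2l2 had r = 0.52 and rho = 0.67 (permutation p = 0.0307 and 0.00312, adjusted p = 0.0438 and 0.00624), with 0.69 without the 2 samples and 0.80, 0.57 and 0.80 within lanes. The anti-apoptotic members of higher GC share (55.9% in Bcl2l1, 53.1% in Bcl2l2) ran with the slope and those of lower share (48.7% in Mcl1, 46.3% in Bcl2) against it. The GC share of Mcl1 was nevertheless near the middle of all genes, at percentile 45.4.

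For the remaining genes, Bak1 had r = 0.85 and rho = 0.75 (permutation p = 1e-05 and 0.00043, adjusted p = 3.33e-05 and 0.00108), with 0.78 without the 2 samples and 0.73, 0.98 and 0.86 within lanes. Bbc3 had r = 0.74 and rho = 0.56 (permutation p = 0.00099 and 0.0170, adjusted p = 0.00198 and 0.0242), with 0.50 without the 2 samples and 0.40, 0.85 and 0.85 within lanes. Bid, Bcl2l11 and Hrk had r of 0.35, -0.34 and 0.22 and rho of 0.42, -0.22 and 0.30, and none had an adjusted permutation p under 0.05 (0.186, 0.186 and 0.366 for r, 0.105, 0.374 and 0.244 for rho).

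**Figure D3:**
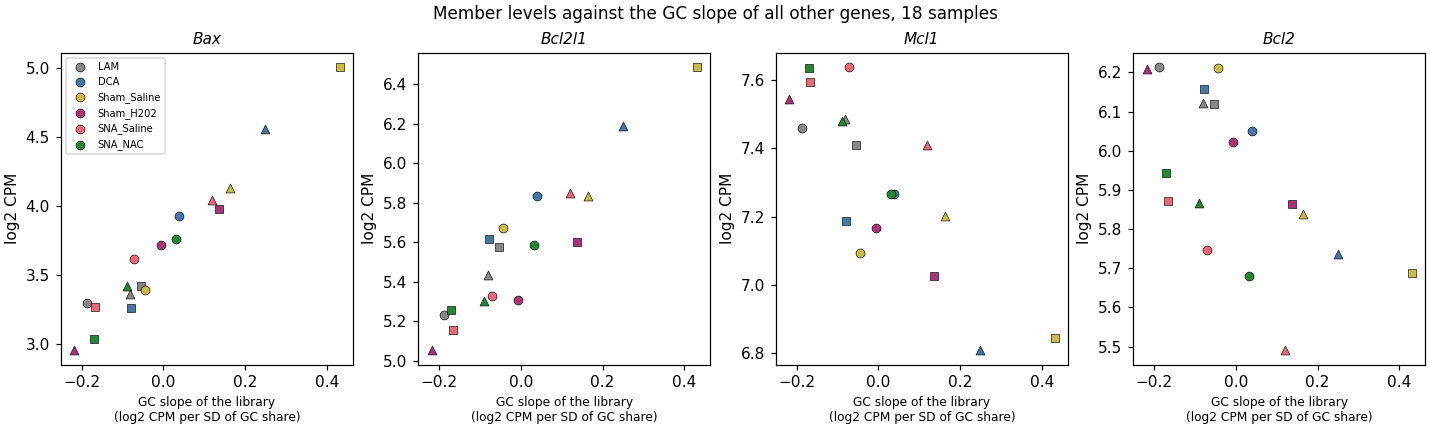
log2 CPM of Bax, Bcl2l1, Mcl1 and Bcl2 (vertical axes) against the GC slope of the library (horizontal axis, log2 CPM per SD of GC share), 1 point per sample, coloured by group, with circles, squares and triangles for replicates 1, 2 and 3. Bax and Bcl2l1 rise with the slope (r = 0.98 and 0.93), Mcl1 and Bcl2 decline (r = -0.82 and -0.61), and Sham_Saline replicate 2 lies at the right edge, at 0.43.

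Once GC share and transcript length entered the edgeR fit as offsets, 2 of 10 members passed in SNA_Saline against Sham_Saline, where 7.48% of all genes passed. Mcl1 was higher after injury, by 0.43 on the log2 scale ± 0.11 (SE), at an edgeR adjusted p of 0.0273. Bcl2 was lower, with a log2 fold change of -0.33 and a standard error of 0.07 (edgeR adjusted p = 0.00921). The call for Bcl2 held in each of 6 fits that left out 1 sample, and that for Mcl1 was lost in 3 of 6, without Sham_Saline replicate 2 (edgeR adjusted p = 0.117) and without SNA_Saline replicate 1 or 2 (0.126 and 0.0849). Bax, at -0.65 without offsets, had a log2 fold change of -0.003 with them (edgeR adjusted p = 0.994), and Bcl2l1 had -0.31 (edgeR adjusted p = 0.0713).

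**Figure D4:**
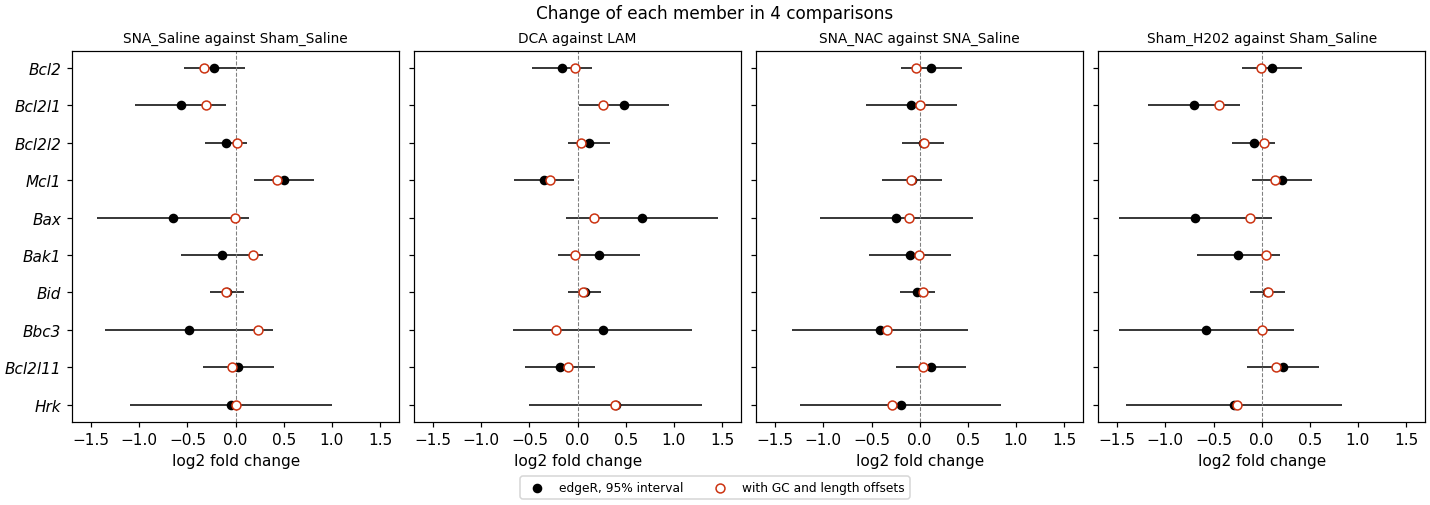
log2 fold change of each member (horizontal axis) in 4 comparisons, with filled points and lines for the edgeR estimate and its 95% interval and open points for the estimate with GC and length offsets. In the sciatic comparison Bbc3 goes from -0.49 (filled) to 0.23 (open) and Bax from -0.65 to -0.003, whereas Mcl1 stays above 0 there (0.50 and 0.43).

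The second comparison asked whether a central injury of the same neurons, in the dorsal columns, was followed by a response of the members in the ganglia. Mcl1 had 176, 170 and 179 CPM in LAM replicates 1 to 3 and 154, 146 and 112 CPM in DCA, every DCA sample below every LAM sample. Its log2 fold change was -0.35 ± 0.15 (SE), at an edgeR adjusted p of 0.624. Bcl2l1 had 37.5, 47.5 and 43.1 CPM in LAM and 57.0, 49.0 and 72.9 CPM in DCA, all DCA samples above all LAM samples, at a log2 fold change of 0.48 ± 0.22 (SE), at an edgeR adjusted p of 0.624, and 0.26 with the offsets. Bax had 9.73 to 10.6 CPM in LAM and 15.1, 9.48 and 23.4 CPM in DCA, with a log2 fold change of 0.67 (edgeR adjusted p = 0.624), and 0.17 with the offsets.

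The other members differed less: Bcl2l2, Bid and Bcl2l11 did not overlap between LAM and DCA, at log2 fold changes of 0.11, 0.07 and -0.19, and Bcl2, Bak1, Bbc3 and Hrk overlapped, at -0.16, 0.22, 0.26 and 0.39. Hrk reached its highest value of the series, 1.89 CPM, in DCA replicate 3. In edgeR 0 of 10 members and 0% of all genes passed. At an unadjusted p under 0.05 there were 2 members (Bcl2l1 and Mcl1), where 5.04% of all genes were under that value, and the groups did not overlap for 5 members, where 21.7% of all genes did not. DESeq2 called 0 members and 2 genes in all, 0.0127%, and the fit with offsets called 0 members and 0 genes.

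The difference between the sciatic and the dorsal column response was tested as a difference of differences. For Mcl1 it was 0.85 on the log2 scale ± 0.21 (SE), with a 95% interval of 0.41 to 1.29 (edgeR adjusted p = 0.0504), and it was 0.74, 0.97 and 0.88 within lanes 1, 2 and 3. For Bcl2l1 it was -1.05 ± 0.32 (SE), at an edgeR adjusted p of 0.0824, and -0.95, -1.37 and -0.75 within lanes. Both genes differed in the same direction in every lane, as did Bax, Bcl2l2, Bak1 and Bid. The share of all genes that did so was not computed. Bax had a difference of -1.31 ± 0.53 (SE), at an edgeR adjusted p of 0.116, and -0.17 with the offsets.

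In edgeR 0 of 10 members passed the test of this difference, where 1.61% of all genes (254, and 118 with the replicate block) passed, and 3 members (Bcl2l1, Mcl1 and Bax) had an unadjusted p under 0.05, where 31.4% of all genes did. DESeq2 called 2 members, Mcl1 (adjusted p = 0.00767) and Bcl2l1 (0.0292), against 11.1% of all genes. With the GC and length offsets the same 2 members passed, Mcl1 at 0.72 (edgeR adjusted p = 0.0165) and Bcl2l1 at -0.57 (0.0293), against 5.3% of all genes. With the offsets and 1 sample left out, the call for Mcl1 was lost in 1 of 12 fits, without SNA_Saline replicate 1 (edgeR adjusted p = 0.0553). That for Bcl2l1 was lost in 6 of 12, without Sham_Saline replicate 2, SNA_Saline replicate 1 or 2, LAM replicate 1 or 3, or DCA replicate 3 (edgeR adjusted p = 0.0719 to 0.0914). The controls themselves stood apart: the mean of Mcl1 was 175 ± 4.56 CPM in LAM and 133 ± 16.5 CPM in Sham_Saline, beside 187 ± 15.4 CPM in SNA_Saline and 137 ± 22.2 CPM in DCA (SD, n = 3 each).

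The third comparison asked whether the antioxidant altered the members after sciatic injury. In SNA_NAC replicates 1 to 3, Mcl1 had 154, 198.5 and 178.5 CPM, overlapping the 169.9 to 199 CPM of SNA_Saline, and its log2 fold change was -0.08 with a 95% interval of -0.39 to 0.23 (edgeR adjusted p = 1.00). Bcl2 had 51.2, 61.4 and 58.2 CPM and Bcl2l1 47.9, 38.1 and 39.4 CPM, both overlapping SNA_Saline, with log2 fold changes of 0.12 and -0.09. Bax had 13.4, 8.07 and 10.6 CPM, with -0.24 and a 95% interval of -1.04 to 0.55. All 10 members overlapped between SNA_NAC and SNA_Saline, where 14.9% of all genes did not. In edgeR 0 members and 0% of all genes passed, 0 members had an unadjusted p under 0.05 (2% of all genes), and DESeq2 and the fit with offsets called 0 members and 0 genes. The narrowest 95% interval was that of Bid, -0.20 to 0.15 on the log2 scale, and the widest that of Hrk, -1.24 to 0.85.

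SNA_NAC was also set against Sham_Saline, the control it shares with SNA_Saline. Mcl1 had a log2 fold change of 0.41 ± 0.15 (SE), at an edgeR adjusted p of 0.114, with every SNA_NAC sample above every sham sample, and Bcl2l1 had -0.65 ± 0.22 (SE), at an edgeR adjusted p of 0.103, with every SNA_NAC sample below, and -0.30 with the offsets. Bax and Bbc3 had -0.89 and -0.90 (edgeR adjusted p = 0.147 and 0.159) and overlapped. Here 0 of 10 members passed in edgeR, against 3.32% of all genes, and 4 (Bcl2l1, Mcl1, Bax and Bbc3) had an unadjusted p under 0.05, against 27.6%. The groups did not overlap for 2 members, against 21.2%. DESeq2 called 1 of 8 members with a value, Bcl2l1 (adjusted p = 0.0481), against 8.42% of all genes. With the offsets 1 member passed, Bcl2, at -0.36 ± 0.07 (SE), at an edgeR adjusted p of 0.00366, against 7.64% of all genes, and Bax had -0.12. Without the offsets Bcl2 had -0.10 (edgeR adjusted p = 0.674), with overlap between the groups and differences of -0.53, 0.25 and 0.03 within lanes 1, 2 and 3.

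The fourth comparison asked whether hydrogen peroxide at the uninjured nerve was followed by a response. Bcl2l1 had 39.4, 48.4 and 33.1 CPM in Sham_H202 replicates 1 to 3, all below the 50.8 to 89.6 CPM of Sham_Saline, a log2 fold change of -0.70 ± 0.23 (SE), at an edgeR adjusted p of 0.449, and -0.44 with the offsets (edgeR adjusted p = 0.588). The within-lane differences were -0.36, -0.89 and -0.78. Bcl2l11 had 5.30, 4.94 and 5.88 CPM, all above the 4.30 to 4.82 CPM of Sham_Saline, at 0.22 with a 95% interval of -0.15 to 0.60 (edgeR adjusted p = 0.529).

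Mcl1 in Sham_H202 had 144, 130.3 and 187 CPM, with only replicate 3 above the sham range, and a log2 fold change of 0.21 with a 95% interval of -0.11 to 0.52 (edgeR adjusted p = 0.492). That replicate was the library with the lowest total and the lowest GC slope, -0.22. The other 7 members overlapped, with log2 fold changes from -0.69 (Bax) to 0.11 (Bcl2). In edgeR 0 of 10 members and 0% of all genes passed, and 1 member (Bcl2l1) had an unadjusted p under 0.05, against 9.15% of all genes. The groups did not overlap for 2 members, against 5.43% of all genes. DESeq2 called 0 members and 4 genes in all, 0.0254%, and the fit with offsets called 0 members and 0 genes.

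The controls of the sciatic and spinal operations were also compared. Relative to LAM, Sham_Saline had lower Mcl1 (log2 fold change -0.40 ± 0.15 (SE), edgeR adjusted p = 0.112) and higher Bcl2l1 (0.62 ± 0.22 (SE), edgeR adjusted p = 0.107, and 0.27 with the offsets), neither with overlap between groups. Bax and Bbc3 were at 0.97 and 1.08 (edgeR adjusted p = 0.116 for each), and at 0.19 and 0.24 with the offsets. In edgeR 0 of 10 members passed, against 0.0699% of all genes (11, and 6 with the replicate block), and 4 (Bcl2l1, Mcl1, Bax and Bbc3) had an unadjusted p under 0.05, against 30.3%. The groups did not overlap for 3 members (Bcl2l1, Bcl2l2 and Mcl1), against 30.6%. DESeq2 called 0 of 8 members with a value, against 7.62% of all genes, and the fit with offsets called 0, against 0.16%.

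Sham_Saline replicate 1 had a large bearing on the calls. Without it, edgeR called 2 members in SNA_Saline against Sham_Saline (Bcl2l1 and Mcl1), 3 in SNA_NAC against Sham_Saline (Bcl2l1, Bax and Bbc3), 5 in Sham_Saline against LAM (Bcl2, Bcl2l1, Bax, Bak1 and Bbc3) and 3 in the difference of injuries (Bcl2l1, Mcl1 and Bax), while over all genes the counts went from 430 to 2548, 522 to 5861, 11 to 5009 and 254 to 4600. The remaining Sham_Saline samples then were those with GC slopes of 0.43 and 0.16. Without Sham_Saline replicate 2, edgeR called 0 members in each of these 4 comparisons, as it did with all samples. Counts over all genes in these fits are not given here, so this is not read as particular to the members. Without SNA_Saline replicate 3, Bcl2l1 and Mcl1 passed in the difference of injuries (edgeR adjusted p = 0.0440 and 0.0428), where 528 of all genes passed.

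Beyond the 10 members, 67 genes of the pathway were described in 5 groups, of which 59 were measured. After sciatic injury 4 of the 59 passed in edgeR, beside 2.73% over the whole table. At an unadjusted p under 0.05 the count was 17, beside 22.5%. Of the other Bcl2 family genes, 1 of 9 measured passed after sciatic injury. Pmaip1, which encodes Noxa, a BH3-only protein that binds Mcl1, had 4.24, 3.20 and 3.33 CPM in Sham_Saline replicates 1 to 3 and 13.7, 14.6 and 11.8 CPM in SNA_Saline. Every injured sample was above every sham sample, and the mean rose from 3.59 ± 0.57 to 13.4 ± 1.45 CPM (SD, n = 3 each), or a log2 fold change of 1.89 ± 0.22 (SE), at an edgeR adjusted p of 7.60e-05. Its mean was 14.2 ± 1.96 CPM in SNA_NAC, 3.58 ± 0.69 CPM in DCA and 3.17 ± 0.42 CPM in LAM (SD, n = 3 each). In Sham_H202 it had 4.27, 4.44 and 7.79 CPM, with a log2 fold change of 0.57 against Sham_Saline (edgeR adjusted p = 0.449). With the offsets the sciatic change of Pmaip1 was 1.59 and Bad, another BH3-only gene, also passed, lower at -0.22 (edgeR adjusted p = 0.0379).

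Of the genes for mitochondrial release, the apoptosome and caspases, 1 of 16 measured passed after sciatic injury. Casp6, an effector caspase linked to axon degeneration, had 4.15, 4.34 and 4.28 CPM in Sham_Saline and 8.78, 8.65 and 7.49 CPM in SNA_Saline, a log2 fold change of 0.96 ± 0.15 (SE), at an edgeR adjusted p of 0.00132. The groups did not overlap. The call was lost with only the 6 samples of the comparison in the fit (edgeR adjusted p = 0.109). With the offsets Htra2 also passed, at 0.29 (edgeR adjusted p = 0.0498), from -0.17 without.

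Among upstream regulators 1 of 16 measured passed. Jun, the transcription factor that JNK activates in injured neurons, had 57.9, 78.5 and 63.3 CPM in Sham_Saline and 152, 151 and 143 CPM in SNA_Saline, without overlap, at 1.16 ± 0.12 (SE), at an edgeR adjusted p of 2.62e-05. Among death receptors, other receptors of their family and adaptors 1 of 10 passed. It was Tnfrsf1b, a receptor for tumour necrosis factor, whereas the other such receptor, Tnfrsf1a, was at -0.11 (edgeR adjusted p = 0.772). Tnfrsf1b had 6.76 ± 0.50 CPM in Sham_Saline and 10.5 ± 1.11 CPM in SNA_Saline (SD, n = 3 each), or a log2 fold change of 0.64 (edgeR adjusted p = 0.0488, and 0.0714 with the replicate block). Its call was lost without any single sample of the comparison except Sham_Saline replicate 1, at adjusted p-values of 0.0614 to 0.255. Of the inhibitors of apoptosis 0 of 8 measured passed in edgeR with or without the offsets, and 1 had an unadjusted p under 0.05. The median log2 fold changes of the 5 groups were -0.06, 0.25, -0.09, 0.23 and 0.03 in the order described, beside -0.03 over all genes.

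SNA_NAC against Sham_Saline shares its control samples with the sciatic comparison. In it Pmaip1, Casp6, Jun and Tnfrsf1b passed, at log2 fold changes of 1.98, 0.74, 1.08 and 0.64, beside the 1.89, 0.96, 1.16 and 0.64 of SNA_Saline. The call of Tnfrsf1b was lost there in 9 of 16 alternatives, among them the replicate block (edgeR adjusted p = 0.0579) and each fit without Sham_Saline replicate 2 or 3 or any SNA_NAC sample (0.0693 to 0.154). That of Casp6 was lost with only the samples of the comparison in the fit (0.157). In SNA_NAC against SNA_Saline none of the 59 measured genes passed in edgeR and 1 had an unadjusted p under 0.05, beside 2% of all genes. In DCA against LAM, in Sham_H202 against Sham_Saline and in Sham_Saline against LAM none passed either, and 1, 5 and 12 of the 59 had an unadjusted p under 0.05, beside 5.04%, 9.15% and 30.3% of all genes. With the offsets 0 of the 59 passed in each of these 4 comparisons.

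**Figure D5:**
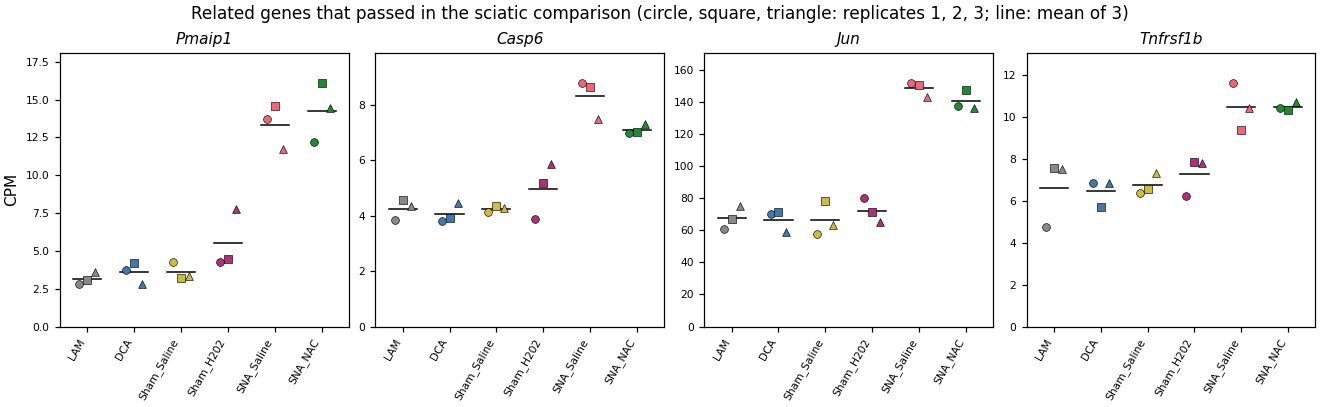
CPM (vertical axis, starting at 0) of 4 related genes that passed in the sciatic comparison, in every sample by group, with circles, squares and triangles for replicates 1, 2 and 3 and a line at the mean of 3. For Pmaip1 the SNA_Saline and SNA_NAC points lie between 11.8 and 16.1 CPM, above the 2.80 to 7.79 CPM of the other 4 groups.

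The genes whose pattern over the 18 samples was most like those of the 2 members with the smallest p after sciatic injury were named as a description, among 12983 genes with a mean of at least 50 counts. For Mcl1 they were Tmx1, Hnrnpa2b1 and Coq10b, at r of 0.96, 0.96 and 0.95, and 6.88% of the genes searched had an r above 0.8. For Bcl2l1 they were Mxd4, Tenc1 and Esrra, at r of 0.98, 0.97 and 0.96, and 16.1% had an r above 0.8. These values share the libraries and their GC slope.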

How the data were processed

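RNA was sequenced from 18 samples in 6 groups of 3. Per the labels, mRNA libraries from a strand-specific kit were sequenced from a single end, 6 to a lane, and the replicate number equals the lane. The authors deposited whole-number counts per gene, whose lowest mean over samples was 10.1, and FPKM values for 45904 features. For the 10 members the deposited FPKM is the count times a factor per gene and a factor per sample. The submitters' processing notes name TopHat2 2.0.12, Bowtie2 2.2.3, SAMtools 0.1.19, HTSeq 0.6.0, edgeR 3.8.6, limma 3.22.7, R 3.1.1, FastQC 0.10.1 and the build mm10 (GRCm38), without their roles. The annotation used for counting is not given in the sources used here.

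The main test was edgeR's quasi-likelihood test (edgeR 4.0.16 in R 4.3.3; TMM, filterByExpr, glmQLFit and glmQLFTest), with all 18 samples in a single fit and no block. The filter kept 15730 of 15730 genes. Benjamini-Hochberg adjustment ran over all of them, at a threshold of 0.05, and the common biological coefficient of variation was 17.4%. CPM are TMM-scaled, with a prior count of 2 before logs were taken. Offsets were natural splines with 5 degrees of freedom of GC share and length of the longest GENCODE M21 transcript, found for 15648 genes. Other alternatives were DESeq2 1.42.0, no filter, at least 10 counts in every sample, only the groups of the comparison, a block for the replicate number, a threshold of 0.10, limma 3.58.1 on log2(FPKM + 1) and log2(FPKM + 0.1), and leaving out each sample. Leaving out each sample with the offsets was added after seeing the data. Correlations with the GC slope used 100000 permutations. The scripts were tested on simulated data.

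The 10 members and the lists of 67 pathway genes and 53 marker genes were chosen with earlier results of these data known. A further pathway gene is not reported here. All members are described. Of a list, up to 5 passing genes are named, those with the largest change. The 3 genes most correlated with each of the 2 members of smallest p are named among those with a mean of at least 50 counts. Promoter sequences come from RefSeq (GRCm38.p6).

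The pairing of samples comes from the lane in the labels, and same-numbered samples are different mice. Over all genes, deviations from the group means of same-numbered samples correlated at -0.65 to 0.56. Samples are pools of 2 different mice, so p-values measure the spread between pools. No pair of replicates agreed within sampling noise (the lowest chi-square per degree of freedom was 4.11). With 3 against 3 samples an exact permutation test cannot go below 0.1, so the fits across all genes were used. The reads carry no molecular identifiers in the labels, so intervals from counts would cover counting error only.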

Additional observations from a re-analysis of the deposited data

Results flagged for a closer look

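For 3 of 59 measured related genes the response to sciatic injury differed from that to dorsal column injury by edgeR's test of the difference itself. Of all genes, 1.61% passed that test. With the GC and length offsets 4 of the 59 passed, Tnfrsf1b in addition, where 5.3% of all genes passed. For Pmaip1 the difference of the log2 changes was 1.75 ± 0.31 (SE), at an edgeR adjusted p of 0.0112, made up of 1.89 after sciatic injury and 0.14 after dorsal column injury. For Jun it was 1.18 ± 0.17 (SE), at an edgeR adjusted p of 0.00155, from 1.16 and -0.02. For Casp6 it was 1.03 ± 0.21 (SE), at an edgeR adjusted p of 0.0270, from 0.96 and -0.06. Pmaip1 and Jun passed in all 22 alternatives. Casp6 passed in 15 of 22, and lost its call without Sham_Saline replicate 2 (0.0559), without SNA_Saline replicate 1 or 2 (0.0923 and 0.0758), without LAM replicate 2 or 3 (0.0693 and 0.0769) and without DCA replicate 1 or 2 (0.0550 and 0.0505).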

How the results depend on the processing

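Over 70 pairs of a member and a comparison, 1166 alternative values were computed, of which 72 had the opposite sign and 32 passed. The counts of members called, 0 in each comparison, moved as follows. In SNA_Saline against Sham_Saline the count was 1 with DESeq2 and at an adjusted p under 0.10 (Mcl1), 2 with GC and length offsets with or without the replicate block (Bcl2 and Mcl1), and 0 to 2 when a sample was left out. In SNA_NAC against Sham_Saline it was 1 with DESeq2 (Bcl2l1), 1 with the offsets with or without the block (Bcl2), and 0 to 3 when a sample was left out. In Sham_Saline against LAM it was 0 to 5 when a sample was left out. In the difference of injuries it was 2 with DESeq2, at an adjusted p under 0.10 and with the offsets with or without the block (Bcl2l1 and Mcl1), and 0 to 3 when a sample was left out. With the offsets and a sample left out, the counts were 1 to 3 in SNA_Saline against Sham_Saline, 1 to 2 in SNA_NAC against Sham_Saline and 0 to 3 in the difference. Shares of all genes are not given here for these fits, for the threshold of 0.10 or for the 32 passing values. These counts are therefore not read as particular to the members. The replicate block alone left all 7 counts of members at 0, and of the named related genes it changed only the calls of Tnfrsf1b. Counts over all genes ran from 65 (only the groups of the comparison) to 2548 (without Sham_Saline replicate 1) beside 430, from 68 to 5861 beside 522 and from 1 to 5009 beside 11 under the same settings, and from 55 (without SNA_Saline replicate 1) to 4600 (without Sham_Saline replicate 1) beside 254.

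In SNA_Saline against Sham_Saline the log2 fold change became 0.0112 for Bcl2l2, 0.18 for Bak1, 0.23 for Bbc3, -0.036 for Bcl2l11 and 0.0086 for Hrk with the offsets, and 0.0121 for Bcl2l2, 0.18 for Bak1, 0.30 for Bbc3 and -0.0479 for Bcl2l11 with the offsets and the replicate block. With limma on log2(FPKM + 1) it was -0.0092 for Bcl2l11, and on log2(FPKM + 0.1) it was -0.0268 for Bcl2l11 and 0.0232 for Hrk. When a sample was left out it ran from -0.30 to 0.0456 for Bak1, -0.90 to 0.34 for Bbc3, -0.14 to 0.11 for Bcl2l11 and -0.41 to 0.40 for Hrk. In the difference of injuries it was 0.21 for Bak1 and 0.46 for Bbc3 with the offsets, with or without the block, and it ran from -0.17 to 0.11 for Bcl2, -1.15 to 0.0821 for Bbc3 and -0.80 to 0.0824 for Hrk when a sample was left out. In Sham_Saline against LAM, Bak1, called without Sham_Saline replicate 1, had 0.38 with all samples and -0.0352 with the offsets. In SNA_NAC against Sham_Saline, Bcl2, called with the offsets, reached 0.0684 in 1 of 16 alternatives. The cause was not tested. Bbc3 and Hrk had at most 60 and 47 counts in a sample. Hrk and Bbc3 had no value with at least 10 counts in every sample.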
